A study of Mus musculus with 16 samples.

Results

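The brain transcripts of mice lacking both Grn and Trem2 were compared with those of wild type mice. The animals were chosen by their genotype label, and they make up 8 of the 16 animals measured, with 4 Grn/Trem2 double knockout and 4 wild type mice. All were female and 6 months old, and total RNA of the whole brain was hybridized to a neuropathology panel of 770 genes on a digital counting platform (nCounter), in which barcoded probes are counted without amplification. The other 8 animals were 4 Grn knockout and 4 Trem2 knockout mice of the same sex and age, which entered the same fit. The sources used here do not give strain, alleles, breeding, littermates or the instrument run. Each sample carries an animal number of its own, so the animals were taken as the replicates. The p-values set differences between groups against the spread between animals within groups.

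Grn encodes progranulin, a secreted protein that is also delivered to lysosomes, where it is cut into granulins. In the brain it is made by microglia and neurons, and mice without it are known for activated microglia and lysosomal storage material. Trem2 encodes a receptor on microglia that binds lipids and lipoproteins, signals through the adaptor DAP12, and is known as a requirement for the shift of microglia from a resting to a disease-associated state. Complete loss of either gene in people causes a neurodegenerative disease. The design asks how the brain's expression profile looks when both are missing.

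Gene counts ran from 477113 to 767742 per animal over the 16 mice. Values are normalized counts, scaled to 10 reference genes, and are given as mean ± SD with n = 4. They carry no background subtraction, and the background threshold, set at the mean plus 2 SD of the 8 negative control probes, lay between 16.3 and 39.1 normalized counts. The negative controls averaged 13.8 ± 1.53 counts per probe in double knockout and 17.3 ± 2.45 in wild type (two-sided exact permutation test, p = 0.0857, with 0.0286 the smallest p that 4 against 4 animals allow). Of the 770 genes, 708 averaged 20 normalized counts or more in the 16 animals together and were tested, and 62 were not. A fold change is a difference in log2(value + 1), double knockout over wild type, and adjusted p-values are from limma with Benjamini-Hochberg adjustment over the 708 genes.

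Both targeted genes matched the genotype labels in each of the 8 animals. Grn measured 23.1, 14.5, 12.5 and 17.7 in double knockout brains, against 662, 565, 594 and 647 in wild type brains. Trem2 measured 5.02, 17.4, 13.5 and 20.4 in double knockout brains, against 159.9, 128, 144 and 140.1 in wild type brains. All 4 double knockout values of both genes lay below the animal's own background threshold, so the differences are bounds. Grn was at least 22.9-fold lower (limma, adjusted p = 2.88e-11) and Trem2 at least 5.31-fold lower (limma, adjusted p = 9.24e-05). The sources used here do not say where on either transcript the probe binds.

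No other gene of the panel passed the threshold of 0.05. The 2 knocked-out genes were all that was called, 0.282% of the 708 genes tested as lower and 0.00% as higher. At an unadjusted p under 0.05 there were 54 genes (7.63%), 17 higher (2.40%) and 37 lower (5.23%) in the double knockout. In 38 genes (5.37%) the 4 double knockout animals and the 4 wild type animals did not overlap, 7 of them higher (0.989%) and 31 lower (4.38%), Grn and Trem2 included. The panel as a whole was centred, with a median log2 fold change of -0.00, 349 genes above 0 (49.3%) and 359 below (50.7%), and quartiles of -0.10 and 0.08. The median SE was 0.11, and the median half-width of the 95% confidence interval was 0.23, from the fit over all 16 animals and before any adjustment for the number of genes. Apart from the knocked-out genes, 22 genes differed by more than 0.5 on the log2 scale, 7 above and 15 below 0.

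The median difference lay below 0 among weakly detected genes. Of 86 genes with a mean from 20 to 50, 60 lay below 0 and the median log2 fold change was -0.15. After subtraction of each animal's negative controls this median was 0.09. Genes with a mean from 50 to 100 had a median of -0.09 (71 genes), or -0.05 after subtraction. From a mean of 100 upward the 3 bins had medians of -0.01 (144 genes), 0.01 (205 genes) and 0.02 (202 genes). The scaled negative controls moved with this lean, at 14.7 in double knockout and 18.3 in wild type (exact permutation p = 0.114), and the part of the background in the weak genes was otherwise not tested.

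**Figure D1:**
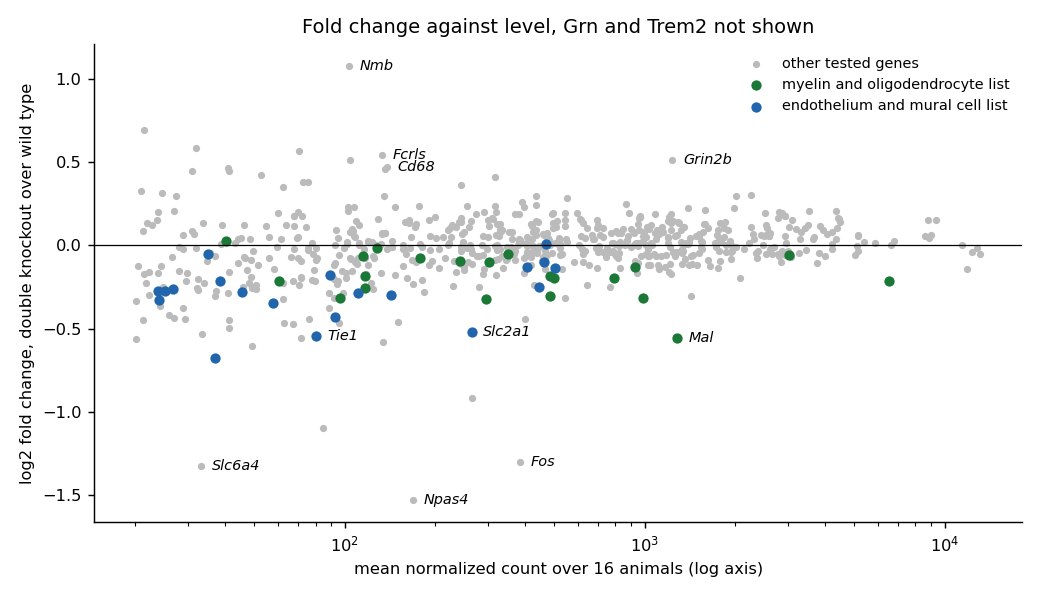
The log2 fold change of each tested gene, double knockout over wild type, is plotted against its mean normalized count over the 16 animals on a log axis, with Grn and Trem2 left out. The spread is wider at low means, 20 of 21 myelin and oligodendrocyte genes (green) and 19 of 20 endothelium and mural cell genes (blue) lie below 0, and Npas4 is lowest at -1.53.

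The microglial and lysosomal gene Cd68 had the smallest p-value on the high side. Cd68, a heavily glycosylated lysosomal membrane protein of phagocytes, measured 159.6, 145, 138 and 168 in double knockout brains, against 131, 91.9, 107 and 113 in wild type brains. Every double knockout value was above every wild type value, although the lowest and the highest of the 2 groups were only 138 and 131. The means were 153 ± 13.6 in double knockout and 111 ± 16.2 in wild type, a log2 fold change of 0.47 (SE 0.12, limma, adjusted p = 0.121). Fcrls, a scavenger receptor-like gene of mouse microglia, measured 137, 153, 157 and 211 in double knockout brains, against 107, 98.9, 109.8 and 132 in wild type brains. These groups did not overlap either, with a log2 fold change of 0.54 (SE 0.16, limma, adjusted p = 0.239).

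The other homeostatic microglia genes were divided in direction. P2ry12, the purinergic receptor that guides microglial processes, averaged 153 ± 17.9 in double knockout and 131 ± 21.5 in wild type. Csf1r, the receptor that keeps microglia alive, averaged 513 ± 91.6 in double knockout and 533 ± 77.6 in wild type. Cx3cr1, the fractalkine receptor, and Tmem119, a microglial membrane protein, had log2 fold changes of -0.05 and -0.09. Of 8 homeostatic microglia genes tested, Fcrls included, 5 lay above and 3 below 0, with a median of 0.07. Of 9 activated microglia genes, Cd68 included, 5 lay above and 4 below, with a median of 0.04, beside -0.00 for all genes. Over the other settings and animals left out these medians ran from 0.04 to 0.17 and from -0.06 to 0.20. None of either list passed the threshold. The summed microglia markers (P2ry12, Tmem119, Cx3cr1, Csf1r and Fcrls) ran from 1352 to 1636 in double knockout and from 1356 to 1651 in wild type. In bulk RNA fewer cells of a type and less RNA per cell cannot be told apart.

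The C1q transcripts lay close to wild type. C1qa, C1qb and C1qc encode the 3 chains of C1q, the starter of the classical complement pathway, which microglia make in the brain. C1qa measured 598, 544, 600.0 and 637 in double knockout brains, against 559.8, 539.6, 530.1 and 503 in wild type brains, and 1 double knockout animal lay within the wild type range. The log2 fold changes were 0.16 for C1qa, 0.09 for C1qb and 0.04 for C1qc. C3, the central complement component, averaged 32.8 ± 10.3 in double knockout and 44.2 ± 9.18 in wild type with overlap. Its log2 fold change was -0.45 (SE 0.23, limma, adjusted p = 0.696), and 3 of 4 animals of each group were above the background threshold. Clu, the extracellular chaperone clusterin, lay lower without overlap at 11410.1 ± 547 in double knockout and 12585 ± 569.9 in wild type, or -0.14 on the log2 scale (limma, adjusted p = 0.696). Of 7 complement genes, 4 lay above and 3 below 0.

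Lysosomal genes other than Cd68 had small differences. Lamp1, a main protein of the lysosomal membrane, averaged 3012 ± 72.1 in double knockout and 3080.4 ± 138 in wild type. Gusb, which encodes beta-glucuronidase, had a log2 fold change of 0.23 (SE 0.12, limma, adjusted p = 0.709). Of 17 lysosomal enzymes and membrane proteins, Cd68 included, 10 lay above and 7 below 0 with a median of 0.01. Of 9 subunits of the vacuolar proton pump 4 lay above and 5 below with a median of -0.02. None passed the threshold. Apoe, the main lipid carrier of the brain, averaged 4233 ± 160.3 in double knockout and 4001 ± 106 in wild type, a log2 fold change of 0.08 with a 95% confidence interval of -0.09 to 0.25.

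Most cytokine and innate signalling genes were weakly detected, and more of them lay below than above 0. Of 30 tested, 8 lay above and 22 below 0, with a median of -0.11. The median was -0.04 with quantile normalization, with 16 of 30 below 0, and -0.21 and -0.16 without wild type replicate 2 and double knockout replicate 1. After background subtraction 18 of the 30 lay below 0, and among the 7 with a mean of at least 100 there were 4 below 0, with a median of -0.05. Tnfrsf11b, the decoy receptor osteoprotegerin, measured 44.2, 49.3, 45.2 and 59.8 in double knockout brains, against 62.6, 61.0, 78.1 and 73.8 in wild type brains, without overlap (limma, adjusted p = 0.562). On the other side, Casp1, the protease that matures interleukin-1 beta, averaged 47.5 ± 9.30 in double knockout and 34.3 ± 7.40 in wild type, and Psmb9, a subunit of the immunoproteasome, averaged 48.2 ± 10.7 in double knockout and 34.8 ± 4.87 in wild type. Both groups overlapped in both genes (limma, adjusted p = 0.503 and 0.295). Wild type values above background were found in 2 of 4 animals for Casp1 and in 1 of 4 for Psmb9.

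The smallest p-value among genes that were not knocked out belonged to Mal, a membrane proteolipid of compact myelin. Mal measured 1035, 1070.0, 998 and 1098 in double knockout brains, against 1424, 1471, 1609 and 1670.3 in wild type brains. The groups were separate, with the highest double knockout animal well below the lowest wild type animal. The means were 1050.2 ± 43.1 in double knockout and 1544 ± 115 in wild type, a log2 fold change of -0.55 (SE 0.12, 95% confidence interval -0.81 to -0.29), and the adjusted p of 0.0920 (limma) missed the threshold. In the other settings Mal passed it in 5 of 12, and it passed in 2 of 16 with 1 animal left out.

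Other myelin genes lay below wild type by less. Mog, a glycoprotein of the outer myelin surface, measured 1033, 794, 901 and 859.9 in double knockout brains, against 929.5, 1198, 1226 and 1127 in wild type brains. One animal of each group crossed over, replicate 1 in both, and the log2 fold change was -0.32 (SE 0.11, limma, adjusted p = 0.376). Pllp, a myelin proteolipid, and Mag, the myelin adhesion molecule facing the axon, had log2 fold changes of -0.32 and -0.30 with overlap, and Mbp, the protein that compacts myelin, had -0.06 (SE 0.17). Of 21 myelin and oligodendrocyte genes, 20 lay below 0 and none passed the threshold. The list's median was -0.18, beside -0.00 for all genes, and it was also -0.18 over the 18 members with a mean of at least 100, which all lay below 0. The summed oligodendrocyte markers (Mog, Mag and Mbp) ran from 3301 to 4971 in double knockout and from 3912 to 5436 in wild type and overlapped.

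**Figure D2:**
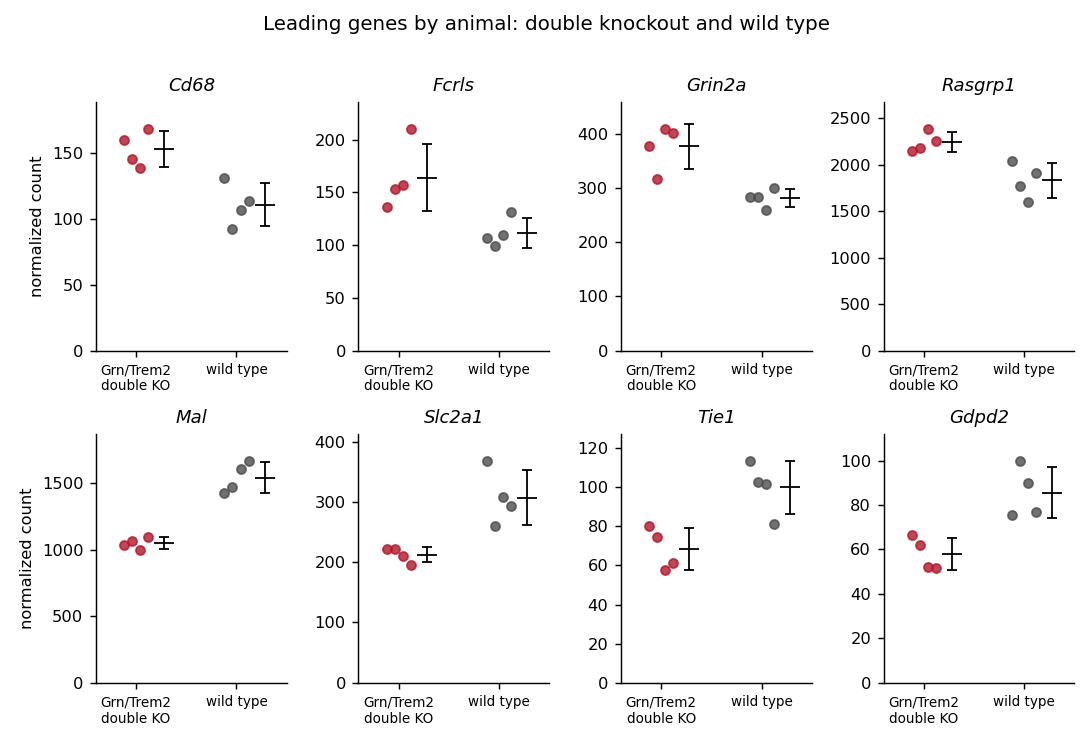
Normalized counts of 8 genes are shown for each animal (points), with mean ± SD beside them (black), double knockout left and wild type right. In the upper row all 4 double knockout animals lie above the wild type animals, and in the lower row all 4 lie below them, as for Mal at 998 to 1098 in double knockout and 1424 to 1670.3 in wild type.

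Genes of blood vessels formed the second group on the low side. Slc2a1, the glucose transporter of the blood-brain barrier endothelium, which astrocytes also carry, measured 222, 223, 211 and 196 in double knockout brains, against 369, 261, 308 and 293 in wild type brains. The double knockout values lay close together and all below wild type, with a log2 fold change of -0.52 (SE 0.12, limma, adjusted p = 0.107). Tie1, an endothelial receptor tyrosine kinase, measured 80.3, 74.5, 57.7 and 61.1 in double knockout brains, against 114, 103, 102 and 81.3 in wild type brains. These groups came close, at 80.3 and 81.3, without overlap, with a log2 fold change of -0.54 (SE 0.14, limma, adjusted p = 0.121). Esam, an endothelial adhesion molecule, averaged 124 ± 10.1 in double knockout and 153 ± 10.4 in wild type, and Flt1, a receptor for vascular endothelial growth factor, averaged 92.1 ± 15.4 in double knockout and 112 ± 4.83 in wild type, both without overlap. Cldn5, the main claudin of brain endothelium, averaged 386 ± 32.5 in double knockout and 461 ± 51.1 in wild type with overlap. Pecam1, an adhesion molecule of endothelial junctions, had a log2 fold change of -0.43 (SE 0.20), and Icam2, whose lowest value was 8.15 in double knockout replicate 4, one of -0.67 (SE 0.36). Flt1, Pecam1 and Icam2 were chosen after their values were seen.

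Of 20 endothelium and mural cell genes, 19 lay below 0 and 1, the growth factor gene Vegfa, above it at 0.01. The median was -0.27, beside -0.00 for all genes, and none passed the threshold. Many members are weakly detected, and after background subtraction 17 of 20 lay below 0 with a median of -0.20. Among the 8 members with a mean of at least 100, 7 lay below 0 with a median of -0.19. The summed endothelial markers (Tie1, Cldn5, Pecam1, Esam and Flt1) ran from 694 to 816 in double knockout and from 857 to 1031 in wild type, with no overlap. Choroid plexus and meningeal marker genes were not among the genes measured. Gata2, a transcription factor of blood, endothelial and some inhibitory neuronal lineages, measured 40.2, 40.6, 31.7 and 50.3 in double knockout brains, against 62.6, 59.0, 62.3 and 62.0 in wild type brains. Its log2 fold change of -0.60 (SE 0.14) had the second smallest p on the low side apart from the knocked-out genes (limma, adjusted p = 0.104).

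Resting astrocyte genes lay close to wild type with 1 exception. Gdpd2, a glycerophosphodiester phosphodiesterase in the astrocyte list, measured 66.3, 61.9, 51.9 and 51.6 in double knockout brains, against 75.3, 99.9, 90.0 and 77.0 in wild type brains. The groups did not overlap, and the log2 fold change was -0.55 (SE 0.14, limma, adjusted p = 0.122). The other 7 of 8 astrocyte genes had log2 fold changes from -0.14 to 0.05, and the median of the list was -0.03. In 2 of the 8, Gdpd2 included, the double knockout was lower without overlap, beside 4.38% of all genes tested. The summed astrocyte markers ran from 14449 to 15670 in double knockout and from 14554 to 15656 in wild type. Gfap, the intermediate filament of reactive astrocytes, averaged 743 ± 109 in double knockout and 794 ± 187 in wild type. Cp, the ferroxidase ceruloplasmin, averaged 122 ± 21.2 in double knockout and 168 ± 23.8 in wild type (limma, adjusted p = 0.226), and Hspb1, a small heat shock protein, 102 ± 15.3 in double knockout and 155 ± 40.5 in wild type (limma, adjusted p = 0.376). Of 9 reactive astrocyte genes, 7 lay below 0 with a median of -0.24, and none passed the threshold. That median was -0.07 without double knockout replicate 2, -0.08 over the 7 members left at a minimum mean of 50, and -0.10 with quantile normalization. It was -0.31 without double knockout replicate 1 and -0.27 over the 4 members with a mean of at least 100.

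**Figure D3:**
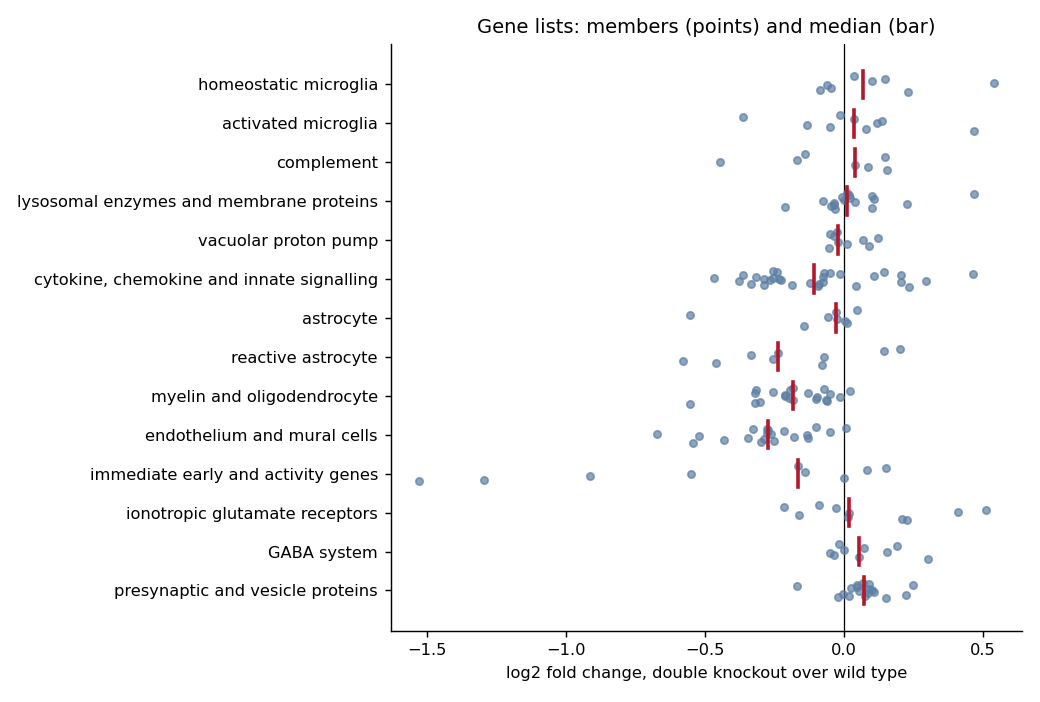
Each point is the log2 fold change, double knockout over wild type, of 1 gene of the list named on the left, and the red bar is the median of the list. The medians are -0.27 for endothelium and mural cells, -0.24 for reactive astrocytes and -0.18 for myelin and oligodendrocytes, and no member passed the threshold. That of reactive astrocytes ran from -0.31 to -0.07 over the other settings and animals left out.

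The largest difference outside the knocked-out genes was in Npas4, a transcription factor that neurons switch on after calcium entry. Npas4 measured 52.2, 53.2, 91.3 and 97.8 in double knockout brains, against 246, 113, 196 and 329 in wild type brains. All double knockout animals lay below all wild type animals, and the wild type animals spread widely. The means were 73.6 ± 24.3 in double knockout and 221 ± 90.7 in wild type, a log2 fold change of -1.53 (SE 0.40, 95% confidence interval -2.38 to -0.68, limma, adjusted p = 0.131). Fos, a subunit of the AP-1 transcription factor, measured 76.3, 249.6, 293 and 152 in double knockout brains, against 698, 138, 391 and 835 in wild type brains. Arc, a protein of active synapses, measured 111, 198, 290.4 and 101 in double knockout brains, against 613, 119.9, 239 and 466 in wild type brains. In both genes wild type replicates 1 and 4 were highest, and wild type replicate 2 lay among the double knockout animals, as did wild type replicate 3 for Arc. Egr1, a zinc finger transcription factor of the same response, had a log2 fold change of -0.55 (SE 0.35). Of 9 immediate early and activity genes 3 lay above and 6 below 0, with a median of -0.16. The median was 0.02 with weighted animals, it was -0.26 and -0.11 without double knockout replicates 2 and 4, and it was -0.36 and -0.10 without wild type replicates 2 and 1. The sources used here do not give the handling of the animals before death, and its part in these values was not tested.

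**Figure D4:**
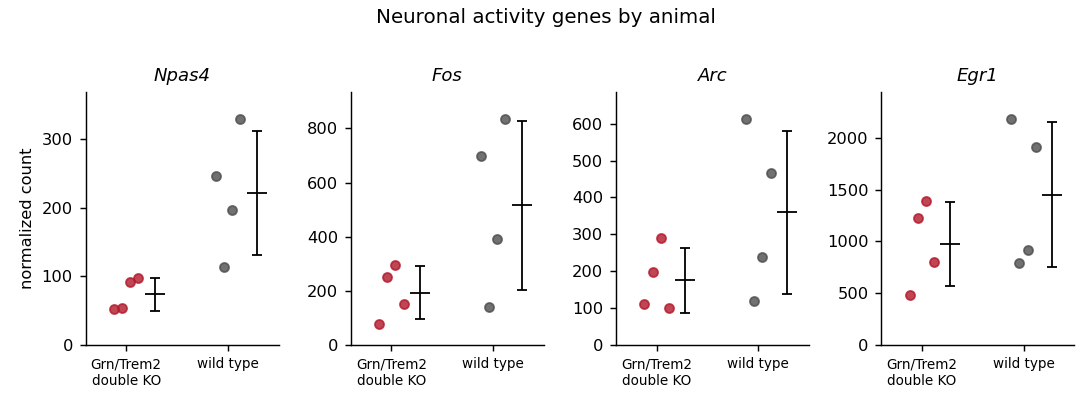
Normalized counts of 4 neuronal activity genes are shown for each animal (points), with mean ± SD (black), double knockout left and wild type right. Npas4 does not overlap (52.2 to 97.8 in double knockout, 113 to 329 in wild type), while Fos, Arc and Egr1 do.

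The sequence just upstream of the annotated start is shown for the gene with the smallest p on the high side, for the one with the smallest p on the low side after the knocked-out genes, and for the one with the largest difference, so that the leading genes can be read beside their values. Capitals mark TGACG or its reverse complement CGTCA, the half-site of the cAMP response element known from genes that neuronal activity switches on. The windows hold 250 bases, from RefSeq on GRCm38.p6, in the direction of transcription.
Cd68, chr11:69666171-69666420, minus strand: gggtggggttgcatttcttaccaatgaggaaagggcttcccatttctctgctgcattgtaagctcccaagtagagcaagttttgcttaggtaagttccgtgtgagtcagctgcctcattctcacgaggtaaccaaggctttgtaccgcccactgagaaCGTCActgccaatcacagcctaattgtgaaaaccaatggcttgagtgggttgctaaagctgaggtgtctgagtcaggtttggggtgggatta
Mal, chr2:127656696-127656945, minus strand: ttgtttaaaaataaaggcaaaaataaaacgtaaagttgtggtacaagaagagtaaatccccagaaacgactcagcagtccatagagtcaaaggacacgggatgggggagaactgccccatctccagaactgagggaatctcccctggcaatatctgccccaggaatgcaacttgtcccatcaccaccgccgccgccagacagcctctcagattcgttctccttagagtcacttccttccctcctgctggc
Npas4, chr19:4989972-4990221, minus strand: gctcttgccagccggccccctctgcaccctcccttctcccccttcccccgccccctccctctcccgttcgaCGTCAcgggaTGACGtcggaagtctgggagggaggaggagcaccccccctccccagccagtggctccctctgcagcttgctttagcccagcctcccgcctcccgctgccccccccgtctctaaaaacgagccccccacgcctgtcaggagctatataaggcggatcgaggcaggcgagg
The half-site occurred 2 times in the Npas4 window, 1 time in that of Cd68 and 0 times in that of Mal. It occurred in 5836 of 32851 promoter windows of this length, or 17.8%. A match is a description of the letters in this window and shows neither binding nor a cause.

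Among the genes with the smallest p on the high side were several of excitatory synapses and calcium signalling. Grin2a, a subunit of the NMDA receptor, measured 378, 317, 409.6 and 402 in double knockout brains, against 284, 284, 260.1 and 300.5 in wild type brains. The groups did not overlap, and the log2 fold change was 0.41 (SE 0.12, limma, adjusted p = 0.226). Grin2b, a second subunit of that receptor, averaged 1509 ± 219.8 in double knockout and 1067 ± 224 in wild type with overlap, and Gria1, an AMPA receptor subunit, averaged 2144 ± 234 in double knockout and 1828 ± 132 in wild type with overlap. The whole list of ionotropic glutamate receptors was divided, with 6 of 10 above 0 and a median of 0.02 (-0.01 without wild type replicate 3). Rasgrp1, an exchange factor for Ras that responds to diacylglycerol, averaged 2242 ± 108 in double knockout and 1832 ± 190.3 in wild type, and Ryr2, a calcium release channel, 431 ± 13.0 in double knockout and 368 ± 38.6 in wild type. Both did not overlap, and nor did Cnksr2, a postsynaptic scaffold gene, which was chosen after its values were seen and had a log2 fold change of 0.18.

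Other neuronal lists had medians on either side of 0. Those of neuronal cytoskeleton and axon genes (-0.04) and of the monoamine and acetylcholine systems (-0.02) lay below, and the following lay above. Of 18 presynaptic and vesicle genes, 15 lay above 0 with a median of 0.07, which was 0.02 without wild type replicate 3 and 0.04 without wild type replicate 1 or double knockout replicate 4. Of 12 metabotropic glutamate receptors and scaffolds, 10 lay above 0 with a median of 0.10, and of 8 interneuron genes 6 lay above 0 with a median of 0.14, which was 0.04 without wild type replicate 3 and 0.05 without double knockout replicate 3. Gad1, an enzyme of GABA synthesis, averaged 2468 ± 316 in double knockout and 2013 ± 395 in wild type (limma, adjusted p = 0.569), in a GABA list with 6 of 9 above 0 and a median of 0.06, which ran from -0.00 to 0.10 over the other settings and animals left out. None of the members of these lists passed the threshold. The summed neuronal markers (Syt1, Gad1 and Gad2) ran from 7771 to 8820 in double knockout and from 6886 to 8601 in wild type. Mapt, which encodes the microtubule protein tau, measured 1062, 1054, 1057 and 1062 in double knockout brains, against 1123, 1211, 1148 and 1186 in wild type brains, a separation of small size with a log2 fold change of -0.14 (SE 0.06, limma, adjusted p = 0.623).

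Several transmitter and peptide genes of small cell groups varied widely between animals. Slc6a4, the serotonin transporter, measured 21.1, 13.5, 26.9 and 13.6 in double knockout brains, against 27.8, 38.0, 72.2 and 61.0 in wild type brains, and 1 of 4 double knockout and 3 of 4 wild type animals lay above background, so its difference has no exact size here. Ddc, the decarboxylase of serotonin and dopamine synthesis, measured 50.2, 66.8, 58.7 and 57.1 in double knockout brains, against 71.9, 75.9, 97.9 and 79.1 in wild type brains. Ddc lay above background in all 8 animals and was lower without overlap, with a log2 fold change of -0.47 (SE 0.20, limma, adjusted p = 0.569). Th, which encodes tyrosine hydroxylase of the dopamine pathway, went the other way with a log2 fold change of 0.56 (SE 0.39) and overlap. Nmb, which encodes neuromedin B, averaged 147 ± 40.3 in double knockout and 78.7 ± 53.3 in wild type, and Avp, which encodes vasopressin, 67.6 ± 49.5 in double knockout and 144 ± 87.4 in wild type, both with overlap. Prl, a pituitary hormone gene, measured 84.6 in wild type replicate 1 and 8.15 to 20.3 in the double knockout animals.

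The remaining leading genes of the low side belong to varied functions. Adcyap1, which encodes the neuropeptide PACAP, averaged 65.6 ± 6.98 in double knockout and 89.4 ± 11.4 in wild type (limma, adjusted p = 0.239). Arhgef10, a guanine nucleotide exchange factor, averaged 165 ± 9.06 in double knockout and 201 ± 20.6 in wild type (limma, adjusted p = 0.255). These 2 genes did not overlap, nor did Cast, the calpain inhibitor calpastatin, at 151 ± 11.6 in double knockout and 173 ± 8.58 in wild type. Txnl1, a thioredoxin-like protein, and Il15ra, a chain of the interleukin-15 receptor, had log2 fold changes of -0.31 and -0.44 with overlap, and Il15ra lay above background in 2 of 4 double knockout and 3 of 4 wild type animals. On the high side Hgf, the hepatocyte growth factor gene, averaged 83.8 ± 7.88 in double knockout and 64.7 ± 9.97 in wild type with overlap (limma, adjusted p = 0.239). Further lists were centred near 0. Above 0 lay 4 of 8 autophagy genes (median 0.00), 6 of 12 genes of cholesterol and lipid handling (0.01) and 7 of 13 of oxidative stress (0.03). The same held for 11 of 20 genes of apoptosis and DNA damage (0.02) and 11 of 16 growth factors (0.05). Above 0 also lay 5 of 13 neuronal cytoskeleton and axon genes (-0.04) and 8 of 18 of the monoamine and acetylcholine systems (-0.02). No member of these lists passed the threshold.

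The double knockout was then set against each single knockout, to see where its values differ from them. These comparisons share the double knockout animals with the comparison above. Against Grn knockout, 2 of 708 genes were called, both lower (0.282%, with 0.00% higher), namely the knocked-out Trem2 and C1qb. The groups did not overlap in 13 genes that were higher (1.84%) and 18 that were lower (2.54%). C1qb measured 817, 797, 819 and 774 in double knockout brains, against 956, 1180.4, 983 and 1242 in Grn knockout brains, without overlap. Its log2 fold change was -0.43 (SE 0.08, limma, adjusted p = 0.0353), and the call held in 9 of 12 other settings and in 4 of 16 with 1 animal left out. C1qa averaged 595 ± 38.5 in double knockout and 843 ± 117 in Grn knockout without overlap, and its adjusted p was 0.216 (limma). Cd68 averaged 153 ± 13.6 in double knockout and 192 ± 19.1 in Grn knockout, where all 4 animals lay above the double knockout (adjusted p = 0.492, limma, at -0.32 on the log2 scale with SE 0.12).

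Against Trem2 knockout, 3 of 708 genes were called, the knocked-out Grn as lower (0.141%) and C1qb and Cd68 as higher (0.282%). C1qb averaged 802 ± 21.0 in double knockout and 571 ± 27.0 in Trem2 knockout, 0.49 higher on the log2 scale (SE 0.08, limma, adjusted p = 0.00998). Cd68 measured 159.6, 145, 138 and 168 in double knockout brains, against 96.4, 116, 84.7 and 96.0 in Trem2 knockout brains, a log2 fold change of 0.64 (SE 0.12, limma, adjusted p = 0.0142). Neither gene overlapped, among 16 such genes that were higher (2.26%) and 12 that were lower (1.69%). With 1 animal left out, the C1qb call held in 15 of 16 fits and the Cd68 call in 11 of 16. Of 12 other settings it held in 11 for C1qb and in 10 for Cd68, and both calls were lost with scaling to the positive controls (adjusted p up to 0.997, limma). For both genes the double knockout mean lay between the means of the 2 single knockouts.

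Mal was lowest in the double knockout, at 1050.2 ± 43.1, with 1317 ± 278 in Grn knockout, 1237 ± 142 in Trem2 knockout and 1544 ± 115 in wild type. Its difference from either single knockout did not pass the threshold (limma, adjusted p = 0.599 against Grn knockout and 0.949 against Trem2 knockout). Slc2a1 averaged 213 ± 12.6 in double knockout, 273 ± 51.0 in Grn knockout, 268 ± 18.1 in Trem2 knockout and 307 ± 45.2 in wild type, and its differences from the single knockouts did not pass either (adjusted p = 0.492 and 0.800, limma). Npas4 averaged 73.6 ± 24.3 in double knockout, 162 ± 50.4 in Grn knockout, 219 ± 117 in Trem2 knockout and 221 ± 90.7 in wild type. Its difference from either single knockout did not pass the threshold. The double and Trem2 knockouts did not overlap (adjusted p = 0.329, limma, for that comparison).

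**Figure D5:**
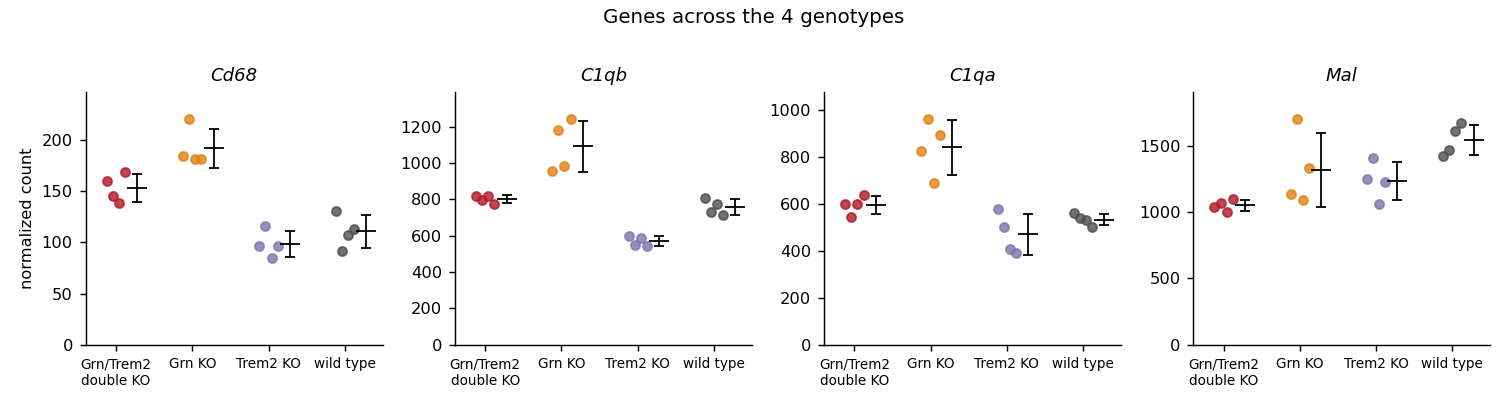
Normalized counts of Cd68, C1qb, C1qa and Mal are shown for each animal (points) with mean ± SD (black) in double knockout, Grn knockout, Trem2 knockout and wild type brains, in that order from the left. Double knockout C1qb (774 to 819) lies between the single knockouts and overlaps wild type, and double knockout Mal (998 to 1098) lies below all wild type animals.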

How the data were processed

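Whole-brain RNA was purified on a silica column (RNeasy Mini), per the labels' protocols, and counted on an nCounter Neuropathology panel. The authors deposited 1 signal per probe and animal, for 770 genes, 6 positive and 8 negative controls. The sources used here do not give their software, background step or normalization, which were read from the values. In each animal at least 99.74% of the gene values of the deposited signal are whole multiples of 1 step (tolerance 0.0075), and the geometric mean of 10 reference genes is 321.56 throughout, so the values are counts scaled to these genes without background subtraction, while the controls are unscaled. A shift shared with the reference genes would be hidden, and background adds to weak genes and compresses their fold changes where it is equal between groups. Scaling factors ran from 0.907 to 1.36.

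Groups came from the genotype label. The fit used limma (version 3.58.1, lmFit and eBayes, under R 4.3.3) on log2(value + 1), with 4 group means over 16 animals with 12 residual degrees of freedom, two-sided, for genes with a mean of at least 20, at an adjusted p of 0.05. The fit was tested on simulated data. Single values were compared by exact permutation over 70 arrangements in Python 3.11.15. Folds of knocked-out genes are bounds, for which a value under the background threshold was set to that threshold. Animals of 1 group differed by more than counting noise in all 24 pairs (chi-square per degree of freedom 3.35 to 15.4), and none was counted as a repeat. The number of animals limits the precision. All 770 symbols were found in RefSeq on GRCm38.p6, 763 as symbol and 7 as synonym.

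Genes were named by a rule: the knocked-out and called genes, the 15 smallest p-values on each side, 3 members of each list, and a fixed set. The text gives a part of these, and Flt1, Pecam1, Icam2, Vegfa, Nmb, Avp and Cnksr2 were added after their values were seen. The comparison, the gene lists and the named genes were chosen with earlier results of these data known. Other settings varied the pseudocount, the minimum mean, the animals in the fit, the scaling, the background, the variance model and the animals left out.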

Additional observations from a re-analysis of the deposited data

Results flagged for a closer look

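Dixon's test was applied to 64 genes in the 2 groups, 128 groups of 4 animals, and 1 animal stood far from the other 3 in 7 of them. Chance flags about 1 in 20 such groups.

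In double knockout brains, Mbp measured 2038 in replicate 4 and 3224 to 3414 in the other animals, and Flt1 measured 69.2 in replicate 3 and 97.7 to 102 in the others. Gfap measured 905.5 in double knockout replicate 1 and 681 to 695 in the other animals, and Adcyap1 measured 76.0 in replicate 3 and 61.1 to 62.9 in the others. In wild type brains, Prl measured 84.6 in replicate 1 and 10.7 to 13.8 in the other animals. Cnksr2 measured 2432 in wild type replicate 3 and 2916 to 2977 in the others, and Gata2 measured 59.0 in wild type replicate 2 and 62.0 to 62.6 in the others.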

How the results depend on the processing

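Against wild type, Grn and Trem2 were called in all 28 other fits, 12 of them other settings and 16 with 1 animal left out. The count of called genes, 2 as reported, was 8 with quantile normalization and 7 with weighted animals, and ran from 2 to 6 with 1 animal left out. Added by quantile normalization were Mal on the low side and Cd68, Fcrls, Psmb9, Hgf and Cers1 on the high side. Added by weighting were Mal, Gata2, Gdpd2, Tie1 and Cd68. Scaling to the positive controls gave 3 genes, with Nmb added on the high side. Leaving out wild type replicate 1 gave 4 genes (Cd68 and Txnl1 added), leaving out Grn knockout replicate 1 gave 6 (Gata2, Gdpd2, Mal and Slc2a1 added), and leaving out Grn knockout replicate 2 gave 5 (Gata2, Mal and Slc2a1 added). Against Grn knockout the 2 calls became 1 with only the compared groups in the fit, with scaling to the positive controls and with scaling to the 9 reference genes other than Cnot10, and 6 with weighted animals. With 1 animal left out they ran from 1 to 3. The calls were 1, with C1qb lost, without wild type replicate 2 or 3, without Grn knockout replicate 2 or 4, and without any 1 Trem2 knockout or double knockout animal. Against Trem2 knockout the 3 calls ran from 1 to 3 with 1 animal left out, with 1 call without Trem2 knockout replicate 4. Scaling to the positive controls called Grn, Npas4 and Prl and neither C1qb nor Cd68, and the fit on only the 2 groups lost Cd68. The adjusted p (limma) of Mal against wild type ran from 0.00790 to 0.664 over these fits and that of Cd68 from 0.0320 to 0.545.

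Among 64 named genes the sign turned in 16 of 1782 fits, in 8 genes that were not called. With weighted animals the log2 fold change was 0.02 for Mbp and -0.02 for C1qc. With 1 animal left out it ran from -0.15 to 0.12 for Mbp, -0.04 to 0.08 for Vegfa, -0.18 to 0.07 for Gfap, -0.14 to 0.02 for Tmem119, -0.10 to 0.02 for Cx3cr1, -0.16 to 0.03 for Csf1r, -0.01 to 0.11 for C1qc and -0.76 to 0.19 for Prl. The causes were not tested. The overall median shifted by 0.36 when the positive controls set the scale. Log2 fold changes and list medians under that scaling are relative to this shift. Its calls and adjusted p-values (limma), as 0.545 for Cd68 against wild type, are from the fit with the shift left in. The median of the myelin list stayed between -0.32 and -0.14 and that of the endothelium and mural cell list between -0.33 and -0.18, while that of the reactive astrocyte list ran from -0.31 to -0.07, of the cytokine list from -0.21 to -0.04, of the activity list from -0.36 to 0.02 and of the interneuron list from 0.04 to 0.17.

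No paired analysis was possible because the replicate numbers only name the animals and each animal has a number of its own. The planned count models were not run, since the deposited values are scaled, and voom on the whole counts stood in for them. It and the scaling without Cnot10 were chosen after seeing the data. With 4 animals a group, differences as large as those of Mal and Npas4 did not pass the adjusted threshold, and genes near the background threshold are limited further.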

Other observations

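Cnot10, 1 of the 10 reference genes behind the scaling, measured 254, 292, 279.8 and 306 in double knockout brains, against 233, 248, 237 and 241 in wild type brains. The groups did not overlap, and the log2 fold change was 0.24 (SE 0.07, limma, adjusted p = 0.283). The other 9 reference genes had 2 above and 7 below 0. The scaling holds the geometric mean of the 10 genes the same in every animal. A rise in 1 of them and a fall in the others therefore give the same scaled values and cannot be told apart here.

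Panel genes next to the knocked-out genes along the chromosome were listed by order. Beside Grn, Becn1 on one side had a log2 fold change of 0.01 and Gfap on the other -0.08. Mapt, the third on that side, was lower without overlap at -0.14. Beside Trem2, Plcl2 had -0.11 and Vegfa 0.01, while Trem1 lay between Vegfa and Trem2 and was not tested for its low mean. Mog and C3, the third and the second from Trem2 on either side, had -0.32 and -0.45. None of the tested neighbours passed the threshold (limma).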
